A study of Mus musculus with 14 samples.

Results

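The nuclear genes of the oxidative phosphorylation system were followed in purified mouse hepatocytes that had lost the splicing factor gene Srsf1. Members were taken by symbol (the Nduf, Sdh, Uqcr, Cyc1, Cox4 to Cox8 and Atp5 names). A member also needed at least 1 transcript annotated as protein coding and 1 TPM or more on average in the 14 libraries, TPM being a length-corrected share of all transcripts in a library. Of 54446 gene identifiers, 98 had a matching symbol, 86 of these had a coding transcript, and 80 passed the minimum. The members were thus chosen by name and annotation, and the mean level was the only measured value they were selected on. Just inside it lay Ndufa4l2 with a mean of 1.23 TPM and Cox7a1 with 1.54 TPM. Just outside it lay Cox6a2 with 0.186 TPM and Cox4i2 with 0.063 TPM. The 80 genes comprised 35 of complex I (16 of the matrix arm, 19 of the membrane arm), 4 of complex II, 9 of complex III, 13 of complex IV and 16 of complex V. The other 3 (Ndufa4l2, Cox7a2l and Atp5s) matched by name but are not subunits of the mature complexes.

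The respiratory chain of the inner mitochondrial membrane passes electrons from NADH (through complex I) and succinate (through complex II) to ubiquinone, then through complex III and cytochrome c to complex IV, which reduces oxygen. Complexes I, III and IV pump protons, and complex V, the ATP synthase, uses the proton gradient to make ATP. All complexes but complex II combine nuclear-encoded subunits with subunits encoded by mitochondrial DNA. Hepatocytes rely on this system for gluconeogenesis, ureagenesis and fatty acid oxidation.

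All mice were C57BL/6. In the chronic model the hepatocyte knockout (HKO) mice carried srsf1f/f with albcre+/-, a Cre recombinase under the albumin promoter, and the controls carried albcre+/- alone, so the controls lacked the floxed allele. HKO and control libraries were made at postnatal day 10 (P10) and at 1 month, with 2 libraries in each group. In the acute model all mice were srsf1f/f and received an adeno-associated virus at 8 weeks of age, with the hepatocyte-specific TBG promoter driving either iCre or GFP. These hepatocytes were taken at 10 weeks, with 3 libraries in each group. Nothing in the labels tells whether each replicate came from its own mouse, so p-values measure only the spread between these libraries, which may be technical.

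Levels below are TPM divided by a median-ratio factor for each library, called rescaled TPM, so that a change is read against the median gene. The factor moved with group: it was 1.30 to 1.31 in the P10 controls and 1.52 to 1.64 in the P10 HKO libraries, and 0.81 to 1.18 with GFP and 0.68 to 0.76 with iCre. In deposited TPM the median gene shifted by 0.25 (log2) in the P10 comparison, by -0.01 in that at 1 month and by -0.31 with iCre. Srsf1 itself fell by 1.00 (log2, SE 0.16, limma adjusted p = 0.010) at P10, by 1.25 (SE 0.16, limma adjusted p = 0.0042) at 1 month and by 1.92 (SE 0.19, limma adjusted p = 0.0014) in the acute model. The 10 hepatocyte markers, among them Alb and Apoa1, summed to between 61316 and 134439 rescaled TPM in every library. The summed markers of macrophages, endothelial cells, stellate cells and cholangiocytes were each at most 385 rescaled TPM, and erythroid markers reached 1914 in HKO P10 replicate 2. In these bulk libraries a lower share of one cell type and less RNA per cell cannot be told apart.

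The members were abundant. Their mean deposited level ran from 1.23 to 575 TPM with a median of 105 TPM, 41 members averaged at least 100 TPM, and only 4 averaged less than 10. On this per-length scale the highest was Atp5b, the catalytic beta subunit of the ATP synthase, followed by Ndufa4, now placed in complex IV, and Atp5g3, a gene for the proton-carrying c-ring. Atp5b lay between 485 and 653 rescaled TPM in all 14 libraries, and its groups overlapped in the 1-month and acute comparisons. Summed over the 80 members the level was 11076 and 10798 rescaled TPM in the P10 controls and 9479 and 9670 in the P10 HKO libraries. At 1 month it was 12145 and 12520 in controls and 10572 and 10827 in HKO libraries. With GFP it was 12867, 12039 and 10625, and with iCre 12637, 13630 and 11337. Thus both HKO groups lay below their controls without overlap, by 0.19 (P10) and 0.20 (1 month) on the log2 scale, and the acute groups overlapped, with a log2 ratio of 0.08. With 2 libraries against 2 the exact permutation test cannot give a p below 0.33, and with 3 against 3 not below 0.10.

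The direction of these sums depended on the scale. In deposited TPM the P10 sum was 0.09 higher in HKO (log2) and the acute sum was 0.36 lower with iCre, while the 1-month sum gave -0.20 with overlapping libraries. On TPM without the mitochondrially encoded genes the HKO sums were higher at both ages, by 0.10 at P10 and 0.12 at 1 month. Each complex was lower in HKO at both ages in rescaled TPM. Complex I gave -0.21 at P10 and -0.29 at 1 month, complex II -0.30 and -0.21, complex III -0.20 and -0.19, complex IV -0.15 and -0.20, and complex V -0.20 and -0.14. On deposited TPM the P10 values were -0.02 for complex II and 0.07 to 0.13 for the others. With iCre complex III (0.25) and complex IV (0.20) were higher on average and complex II (-0.11) and complex V (-0.06) lower, with overlapping libraries in each.

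**Figure D1:**
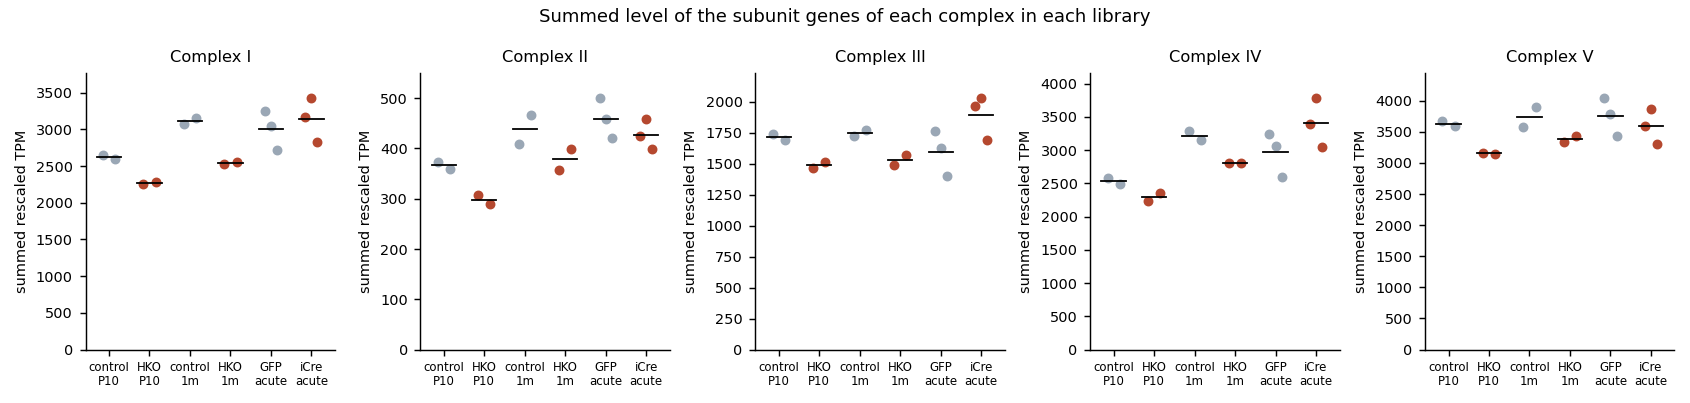
Each point is the summed rescaled TPM (y axis, from 0) of the subunit genes of a respiratory complex in 1 library, and each bar is the group mean, for the 6 groups on the x axis. Complex I stood at 2250 and 2287 in the P10 HKO libraries against 2645 and 2601 in controls, and the acute groups overlapped in all 5 panels.

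At P10, 79 members were tested for HKO against control, with limma on log2(rescaled TPM + 1) and Benjamini-Hochberg adjustment over all 11241 genes. None was called higher and 12 were called lower at an adjusted p under 0.05, against a background of 8.88% of all genes called higher and 8.12% called lower. The 12 made up 15.2% of the members tested. Their median log2 fold change was -0.21, where the median of all genes tested was 0.01, and 69 of the 79 values were negative. Complex I held 10 of the 12 (3 of the matrix arm and 7 of the membrane arm), and complexes II and III held none. The count rested on each P10 library: it was 0 without either control or without HKO replicate 2, and 4 without HKO replicate 1. On deposited TPM 1 member was called higher (background 10.8%) and none lower (background 1.87%), although all 12 kept a negative sign there. The members' median was 0.07 on that scale, against 0.25 for all genes.

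Most P10 calls were in the membrane arm, which holds the proton channels and, among its nuclear-encoded subunits, consists of accessory ones. Ndufb11, an X-linked accessory subunit of this arm, had the smallest p. It stood at 77.3 and 72.2 rescaled TPM in controls and 52.1 and 52.8 in HKO libraries. Its fold change was -0.50 (log2, SE 0.08, limma adjusted p = 0.012), and the groups did not overlap. Ndufb5, another accessory subunit of this arm, stood at 81.1 and 81.9 in controls and 61.7 and 56.4 in HKO libraries, again without overlap. Its log2 fold change was -0.46 (SE 0.09, limma adjusted p = 0.019). In the matrix arm Ndufa7, an accessory subunit, fell from 116 and 111 to 83.8 and 81.6 rescaled TPM (log2 -0.46, SE 0.09, limma adjusted p = 0.018). Ndufs8, a core subunit that carries iron-sulfur clusters, fell from 46.0 and 44.4 to 34.9 and 31.3 rescaled TPM (log2 -0.44, SE 0.09, limma adjusted p = 0.024). Outside complex I only Cox7a1 and Atp5o, the oligomycin-sensitivity subunit of the ATP synthase stalk, were called. Atp5o stood at 139.9 and 135 rescaled TPM in controls and 112 and 103 in HKO libraries. Its log2 fold change was -0.35 (SE 0.09, limma adjusted p = 0.043). The 4 complex II genes gave values between -0.39 and -0.21 and none passed, the nearest being Sdhb, the iron-sulfur subunit, at -0.32 (limma adjusted p = 0.073).

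At 1 month, 1 of 79 members was called higher (background 8.71%) and 15 were called lower (background 7.6%). The members' median log2 fold change was -0.22 against 0 for all genes tested, and 70 values were negative. Of the 15, 13 belonged to complex I (5 of the matrix arm and 8 of the membrane arm), and the others were Uqcrh, the acidic hinge subunit of complex III, and Cox8a, a small subunit of complex IV. The count was smaller without any library of the 1-month groups, at 8 and 6 without control replicates 1 and 2, and at 1 and 5 without HKO replicates 1 and 2. It was 2 without either P10 control, since the fit shares its spread with those libraries. On deposited TPM, where the members' median was -0.24, no member was called lower (background 1.99%).

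Ndufb5 had the lowest value of all members at this age. It stood at 131 and 133 rescaled TPM in controls and 82.5 and 77.8 in HKO libraries, without overlap. Its log2 fold change was -0.71 (SE 0.09, limma adjusted p = 0.0042). In the matrix arm Ndufa6, an accessory subunit of the LYR family, stood at 203 and 208 in controls and 143 and 145 in HKO libraries. Its log2 fold change was -0.51 (SE 0.09, limma adjusted p = 0.013). Ndufa5, an accessory subunit of the same arm, stood at 92.3 and 107 in controls and 70.3 and 66.7 in HKO libraries (log2 -0.53, SE 0.11, limma adjusted p = 0.024). Neither of these matrix-arm genes had passed at P10, where Ndufa6 was at -0.02 and Ndufa5 at -0.08, but the difference between the ages did not pass either (limma adjusted p = 0.074 and 0.14). For Ndufs7, the core subunit whose iron-sulfur cluster hands electrons to ubiquinone, the values were 60.8 and 67.6 rescaled TPM in controls against 50.1 and 44.8 in HKO libraries. Its log2 fold change was -0.43 (SE 0.10, limma adjusted p = 0.037), whereas at P10 it was 0.22 and did not pass (limma adjusted p = 0.054 for the difference between the ages). The 1-month call of Ndufs7 was lost without either P10 control, without control replicate 2 or without either HKO library of that age. In complex III, Uqcrh fell from 245 and 244 to 181 and 189 rescaled TPM (log2 -0.40, SE 0.09, limma adjusted p = 0.030). Cox8a fell from 264 and 285 to 212 and 215 rescaled TPM (log2 -0.36, SE 0.09, limma adjusted p = 0.044).

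**Figure D2:**
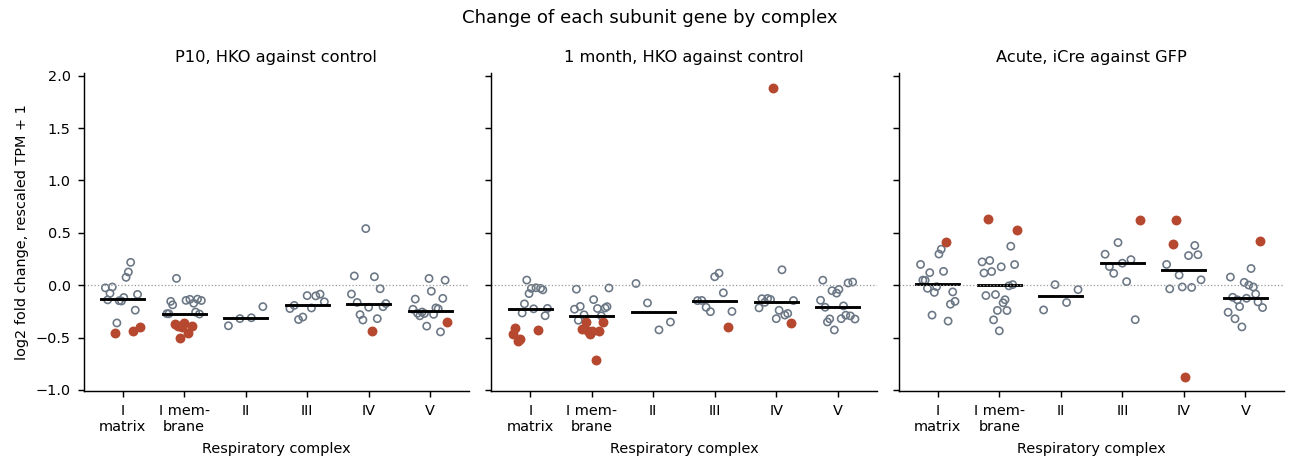
Each point is the log2 fold change (y axis, rescaled TPM + 1) of 1 subunit gene, sorted by complex on the x axis, for the 3 knockout comparisons. Filled points passed a limma adjusted p of 0.05 and bars are medians. The membrane arm of complex I had median values of -0.27 and -0.29 in the P10 and 1-month comparisons and of 0.01 with iCre.

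The P10 and 1-month comparisons share no libraries, although both use the same fit. In both comparisons 63 of 79 members (79.7%) were negative, where 29.9% of all genes tested were. Called lower at both ages were 7 members, which is 58.3% of the 12 at P10 and 46.7% of the 15 at 1 month. For all genes tested, 251 were called lower at both ages, which is 27.5% of 913 and 29.4% of 854. All 7 members were membrane-arm genes of complex I: Ndufb2, Ndufb3, Ndufb5, Ndufb7, Ndufb10, Ndufb11 and Ndufa3, each an accessory subunit. Their log2 fold changes lay between -0.50 and -0.36 at P10 and between -0.71 and -0.35 at 1 month. Ndufb2 is typical: it stood at 64.2 and 66.7 rescaled TPM in P10 controls, 49.8 and 49.2 in P10 HKO, 77.1 and 82.8 in 1-month controls and 55.5 and 59.6 in 1-month HKO libraries. At neither age did the HKO libraries reach the controls. A test of the difference between the 2 effects, 1 month minus P10, called 1 member higher (background 3.36%), Cox6b2, and none lower (background 2.86%). Without any chronic library but HKO P10 replicate 2 that call was lost, with limma adjusted p from 0.055 to 0.19. On deposited TPM no member passed for this difference (background 1.01% higher and 1.8% lower).

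**Figure D3:**
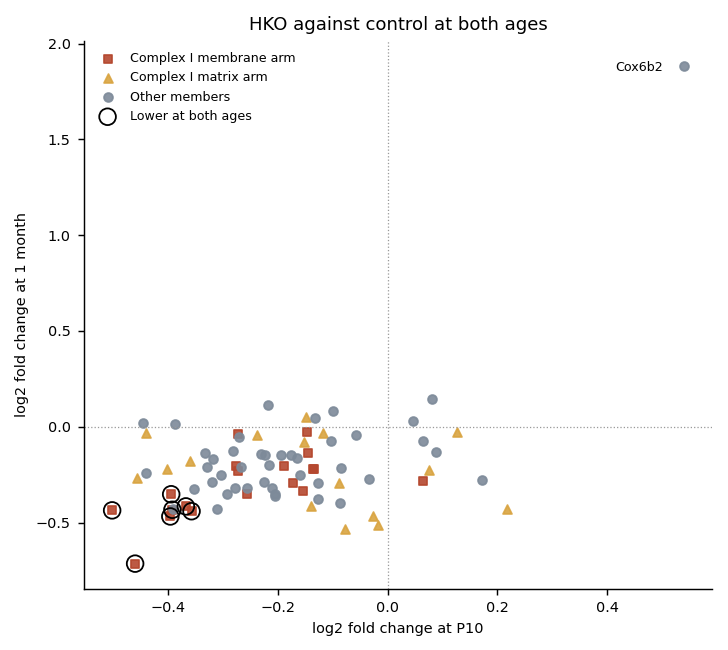
Each point is 1 of 79 members, with the log2 fold change of HKO against control at P10 on the x axis and at 1 month on the y axis. The 7 ringed genes were called lower at both ages and all are membrane-arm genes, and Cox6b2 stands apart at 0.54 and 1.89.

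Some summed cell-type markers also differed between the HKO and control libraries of the chronic model. At 1 month the macrophage marker sum was 44.8 to 169 rescaled TPM in HKO and 16.6 to 18.4 in controls. The stellate sum was 9.47 to 36.3 in HKO and 4.91 to 5.85 in controls, and the hepatocyte sum 84121 to 93582 and 100701 to 108962. The cholangiocyte sum was 18.5 to 44.9 in HKO and 1.62 to 2.24 in controls. Most of it was Spp1, at 42.6 and 16.6 in HKO and 1.30 and 1.02 in controls. Krt19, Epcam, Sox9 and Cldn4, also on that list, were low but higher in each 1-month HKO library than in either control. Epcam stood at 0.67 and 0.27 in HKO and 0.014 and 0.031 in controls. Sox9 stood at 1.04 and 1.25 in HKO and 0.88 and 0.54 in controls. Krt7 overlapped between the groups. At P10 the cholangiocyte sum was 71.7 to 96.2 in HKO and 43.7 to 52.6 in controls. The hepatocyte sum was 70472 to 78246 against 128363 to 134439. The macrophage sum overlapped, at 282 to 385 in HKO and 290 to 302 in controls. Spp1 stood at 61.8 and 85.7 in P10 HKO and 42.0 and 50.8 in P10 control libraries. Cldn4 stood at 6.49 and 6.94 in P10 HKO and 0.011 and 0.027 in P10 control libraries. Krt19, Epcam and Sox9 were also higher in each P10 HKO library than in either control, and Krt7 overlapped. The part of these differences in the members' values was not tested.

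In the acute model, 8 of 79 members were called higher (background 19.8%) and 1 was called lower (background 18.6%). Both shares, 10.1% and 1.27%, lay under those of all 10323 genes tested, and the members' median log2 fold change was 0.03. The 8 were spread over the complexes: Ndufs7, Ndufa13 and Ndufs5 of complex I, Uqcrq of complex III, Cox6a1 and Cox5b of complex IV, Atp5mpl of complex V, and the name-matched Ndufa4l2. Ndufa4l2 reached the minimum of 1 TPM only through the iCre libraries, where it was high, so its call is a consequence of the choice and not a result. Cox7a1, the 1 called lower, met the minimum of this fit only through the GFP libraries, where it was high. No other complex I gene passed in either direction. The number called higher depended on single libraries, with 5, 2 and 2 left without GFP replicates 1, 2 and 3, and 2 and 4 left without iCre replicates 1 and 2. With the replicate number as a block it was 13 higher and 3 lower, in a fit over all 14 libraries 18 higher and 7 lower, and without iCre replicate 2 the number lower was 5. On deposited TPM 1 was called higher (background 5.93%) and 27 lower (background 34.8%), and Ndufs7, Atp5mpl and Cox5b then had values just below 0. The members' median was -0.40 on that scale, against -0.36 for all genes.

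Ndufa13, an accessory subunit of the complex I membrane arm also known as GRIM-19, stood at 48.5, 47.3 and 39.5 rescaled TPM with GFP and 71.6, 78.0 and 61.9 with iCre. Every iCre library lay above every GFP library, and the log2 fold change was 0.63 (SE 0.13, limma adjusted p = 0.011). Uqcrq, the small ubiquinone-binding-protein subunit of complex III, stood at 326, 279 and 232 with GFP and 469, 429 and 386 with iCre. The groups did not overlap, and the log2 fold change was 0.62 (SE 0.16, limma adjusted p = 0.023). Cox6a1, the form of subunit VIa made in liver, stood at 309, 285 and 235 with GFP and 421, 478 and 379 with iCre (log2 0.62, SE 0.15, limma adjusted p = 0.020). Cox5b, a peripheral zinc-binding subunit of complex IV, stood at 140.2, 140.1 and 122 with GFP and 183, 185 and 161 with iCre (log2 0.39, SE 0.11, limma adjusted p = 0.033). Atp5mpl, a small proteolipid of the ATP synthase, was the only complex V gene called. It stood at 241, 221 and 185 with GFP and 292, 284 and 285 with iCre (log2 0.42, SE 0.13, limma adjusted p = 0.040). Ndufs7 stood at 61.9, 60.8 and 57.3 with GFP and 84.4, 85.3 and 71.4 with iCre (log2 0.41, SE 0.10, limma adjusted p = 0.023). This is opposite in direction to its value at 1 month in HKO, and the call was lost without any library but iCre replicate 3 (limma adjusted p from 0.051 to 0.077). The macrophage marker sum was 9.78 to 66.6 rescaled TPM with iCre and 5.84 to 10.4 with GFP, and the endothelial sum 10.4 to 25.6 and 4.67 to 8.80, and the stellate sum 5.15 to 19.5 and 1.58 to 5.11. Their part in these values was not tested. The membrane-arm genes called lower at both chronic ages were not called here by limma: Ndufb5 gave -0.17, Ndufb11 -0.09 and Ndufb3 -0.44 (limma adjusted p = 0.077). Ndufb10 stood at 159, 143 and 146 with GFP and 124, 126 and 107 with iCre, without overlap. In the authors' deposited table Ndufb10 (-0.48, adjusted p = 0.0093) and Ndufb3 (-0.57, adjusted p = 0.023) were lower in the acute model. The rest of these genes did not pass there, with values from -0.39 (Ndufb2) to 0.09 (Ndufa3).

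The acute and 1-month effects were compared in a fit over all 14 libraries. The difference, acute minus 1 month, passed for 15 of 80 members: 13 were higher in the acute model (background 8.76%) and 2 were lower (background 7.99%). The members' median difference was 0.26. The 13 included Uqcrq (0.88, SE 0.20, limma adjusted p = 0.016), Ndufs7 (0.84, SE 0.14, limma adjusted p = 0.0039), Ndufa13 (0.83, SE 0.18, limma adjusted p = 0.012) and Ndufa3 (0.65, SE 0.13, limma adjusted p = 0.0090). Ndufa4l2 is also among the 13, again as a consequence of the choice and not as a result. The 2 lower were Cox6b2 and Cox7a1, and neither passed with a pseudocount of 0.1 TPM in place of 1 (-0.77, limma adjusted p = 0.24, and -1.11, limma adjusted p = 0.064). The authors' deposited table has Cox6b2 at 2.58 at 1 month and 2.07 in the acute model. Of 78 members tested in both, 40 (51.3%) had opposite signs at 1 month and in the acute model, against 35.5% of all genes. Model, age, virus and control genotype differ between these comparisons and cannot be told apart. Without either 1-month HKO library 5 members were called higher. On deposited TPM none was higher (background 1.01%) and 1 was lower (background 5.82%).

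**Figure D4:**
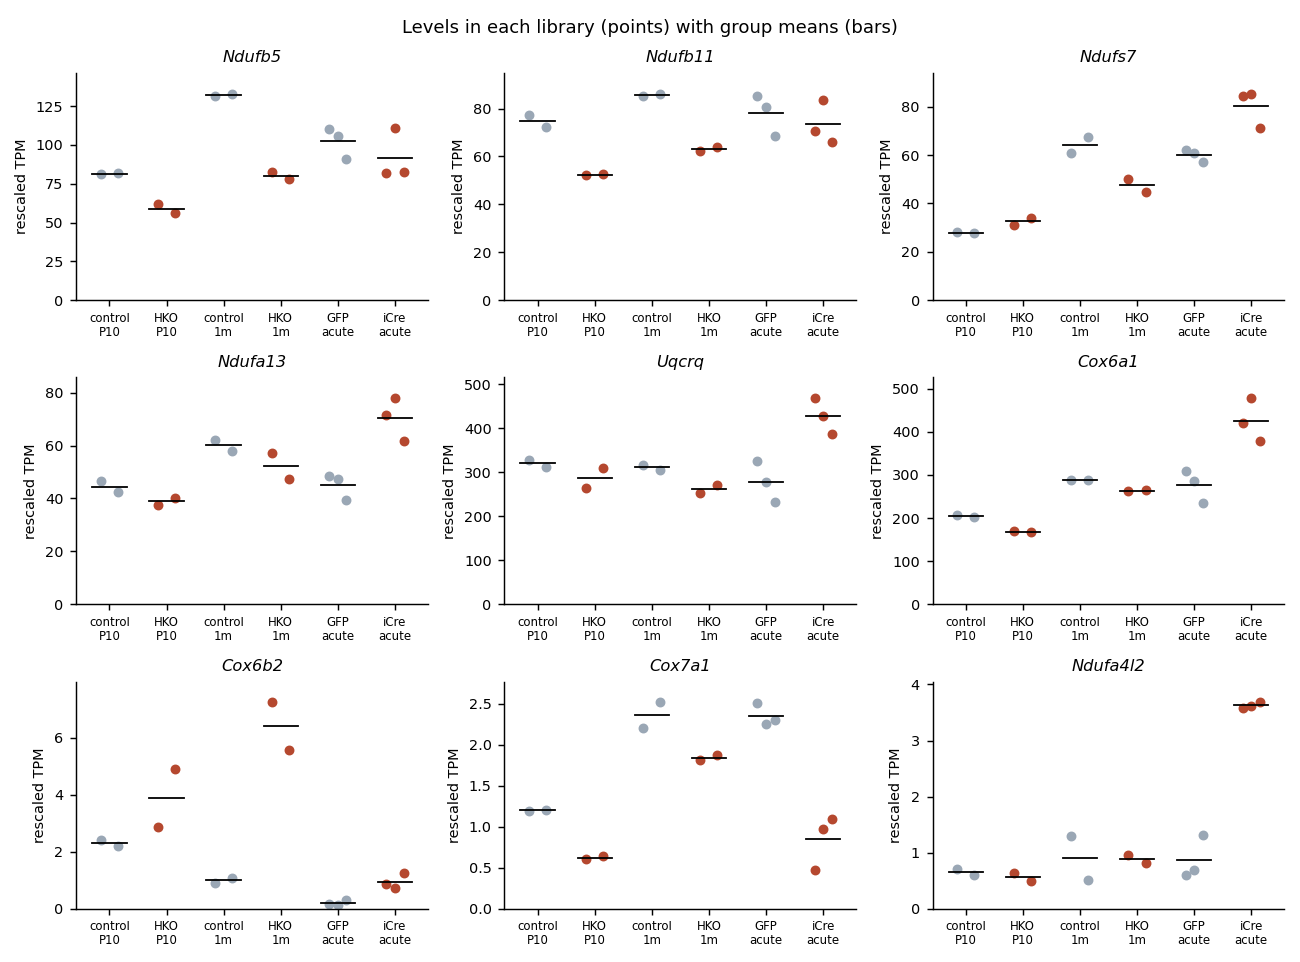
Each point is the rescaled TPM (y axis, from 0) of a member in 1 library, and each bar is the group mean, for the 6 groups on the x axis. Ndufb5 and Ndufb11 were lower in HKO at both ages, Ndufs7, Ndufa13, Uqcrq and Cox6a1 were higher with iCre (Ndufs7 not on deposited TPM), and Cox6b2, Cox7a1 and Ndufa4l2 stood under 10 rescaled TPM in every library.

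Of the tissue-restricted isoforms, Cox6b2 and Cox7a1 were tested. Cox6b2, the form of subunit VIb known from testis, stood at 0.91 and 1.08 rescaled TPM in the 1-month controls and 7.24 and 5.57 in HKO libraries. Its log2 fold change was 1.89 (SE 0.21, limma adjusted p = 0.0026), the only member called higher in the chronic model. At P10 it was at 2.39 and 2.19 in controls and 2.87 and 4.90 in HKO libraries, and did not pass (limma adjusted p = 0.13). In the acute model it was under the minimum of the fit, at 0.169, 0.139 and 0.302 with GFP and 0.856, 0.735 and 1.25 with iCre, without overlap. In the authors' deposited table its acute log2 fold change was 2.07 (adjusted p = 0.0014) on a mean of 24.1 normalized counts. Its common counterpart Cox6b1 stood between 168 and 224 rescaled TPM in all libraries and was not called by limma in any knockout comparison. In the authors' deposited table Cox6b1 was lower at P10 (-0.37, adjusted p = 0.0067). The Cox6b2 rise at 1 month stood beside the higher cholangiocyte and macrophage sums given above. In the acute model the macrophage sum was 5.84 to 10.4 with GFP and 9.78 to 66.6 with iCre. The cholangiocyte sum was 2.11 to 2.65 with GFP and 1.40 to 3.77 with iCre. Their part in the Cox6b2 values was not tested.

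Cox7a1, the form of subunit VIIa of heart and skeletal muscle, was the only member called lower in the acute fit of 6 libraries. It stood at 2.51, 2.25 and 2.30 rescaled TPM with GFP and 0.473, 0.966 and 1.09 with iCre (log2 -0.88, SE 0.15, limma adjusted p = 0.0067). It met the minimum of that fit only through the GFP libraries, so the call depends in part on that choice. Without a filter on low values its limma adjusted p was 0.024. At P10 it also fell, from 1.19 and 1.20 to 0.598 and 0.639 (log2 -0.44, SE 0.10, limma adjusted p = 0.031). Since the limma fold change is taken after adding 1, it understates changes at such levels. In the authors' deposited table Cox7a1 did not pass at P10 (-0.99, adjusted p = 0.28), on a mean of 28.6 normalized counts. It passed there in the acute model (-1.62, adjusted p = 0.0014). The 8 muscle markers summed to at most 3.61 rescaled TPM in any library, and the brown fat markers to at most 0.22. The common form, Cox7a2, stood between 125 and 211 rescaled TPM and was not called by limma. Ndufa4l2, a hypoxia-induced relative of Ndufa4, was also low in most libraries. It stood at 0.606, 0.687 and 1.32 with GFP and 3.58, 3.62 and 3.68 with iCre, without overlap. It met the minimum only through those iCre libraries, so its levels are given as a description, with no test. It was at most 1.29 rescaled TPM in all 8 chronic libraries, and Ndufa4 itself, at 344 to 611, was not called by limma. Cox4i2, Cox6a2, Cox7b2, Cox8b and Cox8c had coding transcripts but means of at most 0.186 TPM and were not tested.

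Ratios within a library do not depend on its scaling. The mean log2 level of the complex I genes minus that of the complex V genes was -1.25, -1.25 and -1.24 with GFP and -1.13, -1.11 and -1.12 with iCre, so complex I stood higher relative to complex V in every iCre library. Complex IV (without Cox6b2 and Cox7a1) minus complex I was 1.65, 1.67 and 1.61 with GFP and 1.81, 1.83 and 1.80 with iCre, so complex I stood lower relative to complex IV in every iCre library. At 1 month complex I minus complex V was -1.16 and -1.23 in controls and -1.25 and -1.32 in HKO libraries, a narrow gap in the other direction. At P10 it was -1.40 and -1.39 in controls and -1.41 and -1.37 in HKO libraries, which overlapped. The summed level of the 13 proteins encoded by mitochondrial DNA, divided by that of the 80 nuclear members, was 11.1, 13.7 and 11.7 with GFP and 37.2, 34.5 and 55.1 with iCre. All 13 mitochondrial genes were called higher in the acute model, with a median log2 fold change of 1.76, where the nuclear members' median was 0.03. In the chronic model this ratio overlapped at P10 (19.4 and 22.1 against 17.5 and 22.8) and was 29.5 and 21.02 against 62.3 and 30.3 at 1 month. The transcripts of these 13 proteins took 50.3% of all TPM in HKO 1-month replicate 1, the most of any library.

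The members also moved with age in the controls, a comparison that shares its libraries with both chronic ones. In these controls the macrophage sum was 290 to 302 rescaled TPM at P10 and 16.6 to 18.4 at 1 month. The endothelial sum was 57.0 to 57.8 and 7.47 to 10.3, and the stellate sum 91.1 to 100 and 4.91 to 5.85. The hepatocyte sum was 128363 to 134439 and 100701 to 108962. The part of these sums in the members' changes was not tested. From P10 to 1 month 25 of 79 members rose (background 22.8%) and 2 fell (background 24.3%), with a median log2 change of 0.15. Ndufs7 rose most, from 28.1 and 27.6 to 60.8 and 67.6 rescaled TPM (log2 1.17, SE 0.10, limma adjusted p = 0.00025). Ndufa6 rose by 0.71 (SE 0.09, limma adjusted p = 0.0011), Ndufb9 by 0.69 (SE 0.09, limma adjusted p = 0.0013) and Ndufb5 by 0.69 (SE 0.09, limma adjusted p = 0.0012). Complex I held 13 of the 25, complex IV 7, and complex V 1. Both genes that fell were Ndufa7 (-0.36) and Cox6b2 (-0.72). This direction also depended on scale, since on deposited TPM 1 member was called higher (background 6.08%) and 8 lower (background 38.2%), where the median gene moved by -0.40. The count of members called higher was 11 and 9 without P10 control replicates 1 and 2.

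Transcript usage, the share of a gene's TPM given to each of its transcripts, was tested with limma's diffSplice for members with at least 2 transcripts of at least 1 TPM and 5% of the gene. A call needed an adjusted p under 0.05 and a share that differed by at least 10 percentage points. At P10, 1 of 30 members was called (background 1.11%), at 1 month 0 of 30 (background 2.12%, with 5 at an unadjusted p under 0.05), and in the acute model 9 of 25. With iCre 41.9% of all genes tested were called, so the members' 36% lay near the background. The 9 were Ndufs3, Ndufs1, Ndufs4, Ndufa10, Ndufb4, Ndufa3 and Ndufb5 of complex I, Cyc1 of complex III and Atp5b of complex V. Whole-gene levels of these 9 were not called in the acute model.

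The stretches that tell the main alternative transcripts from the leading coding ones are shown in GRCm38, 5′ to 3′ on the transcript strand, from the GENCODE M21 transcripts. The exon of Ndufs3-201 that is missing from Ndufs3-202 spans chr2:90898384-90898503 on the minus strand. It is the coding exon 6 of 7, with 120 bases, a multiple of 3, all of them in capitals.
Ndufs3: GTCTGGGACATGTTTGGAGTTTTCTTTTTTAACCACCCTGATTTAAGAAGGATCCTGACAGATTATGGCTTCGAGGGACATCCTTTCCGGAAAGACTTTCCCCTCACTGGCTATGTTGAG
The exon 2 of 10 of Ndufa10-201 spans chr1:92470817-92470985 on the minus strand. The 134 coding bases in capitals are dropped from Ndufa10-207, which is annotated for nonsense-mediated decay.
Ndufa10: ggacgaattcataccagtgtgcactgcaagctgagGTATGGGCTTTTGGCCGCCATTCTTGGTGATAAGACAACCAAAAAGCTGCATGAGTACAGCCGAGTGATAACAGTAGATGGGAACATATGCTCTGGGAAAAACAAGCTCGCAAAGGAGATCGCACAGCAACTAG
The first exon of Ndufa3-204, also annotated for nonsense-mediated decay, ends 10 bases further than that of Ndufa3-201, at chr7:3617398-3617417 on the plus strand, with the added bases in capitals.
Ndufa3: atggccgggaGTAAGTACAG
Atp5b-206, a short non-coding transcript on the plus strand of chromosome 10, starts with a 21-base exon at chr10:128088552-128088572, in capitals, followed by the exon it shares with Atp5b-201.
Atp5b: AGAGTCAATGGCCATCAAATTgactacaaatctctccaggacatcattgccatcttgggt

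Ndufs3 encodes a core subunit of the complex I matrix arm, at the ubiquinone-binding end. Ndufs3-202 took 1.70% and 1.44% of the gene's TPM in P10 controls and 9.71% and 21.5% in P10 HKO libraries. At 1 month it took 3.23% and 1.49% in controls and 8.23% and 9.67% in HKO libraries. The acute libraries gave 0.93%, 1.53% and 1.55% with GFP and 26.6%, 19.4% and 25.1% with iCre. The share thus lay between 0.93% and 3.23% in all 7 control libraries and between 8.23% and 26.6% in all 7 knockout libraries, with no overlap. The gene's usage passed at P10 (diffSplice adjusted p = 0.0099) and in the acute model (diffSplice adjusted p = 6.7e-08), and at 1 month it did not (diffSplice adjusted p = 0.057). The P10 call was lost without either P10 control or without HKO replicate 2. Ndufs3-202 also holds 174 bases at chr2:90902513-90902686 that Ndufs3-201 lacks, and has no annotated coding sequence. Of its sequence words of 31 bases, 30.0% are absent from Ndufs3-201. The gene's summed level did not pass in any knockout comparison, with log2 values of -0.12, -0.03 and 0.30.

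None of the other 8 genes was called for usage in the chronic model. Atp5b-206 was at 0.03% or less with GFP and at 14.2%, 19.8% and 21.4% with iCre (diffSplice adjusted p = 1.3e-09). In the chronic model it took 7.45% to 29.7% of the gene in controls and 5.80% to 27.6% in HKO libraries, which overlapped. Another transcript, Atp5b-207, took 0.69% to 23.6% with GFP and 0.19% to 0.50% with iCre. The leading coding Atp5b-201 thus overlapped between the acute groups, at 75.3% to 98.6% with GFP and 75.4% to 84.0% with iCre. Cyc1-201, the full coding transcript of cytochrome c1, fell from 96.6%, 95.9% and 95.9% with GFP to 84.8%, 80.5% and 80.2% with iCre (diffSplice adjusted p = 3.4e-06). The shorter Cyc1-203 was at most 0.53% with GFP and 9.30% to 15.8% with iCre, but 22.6% to 26.2% in the chronic controls. Ndufa10-207 rose from 1.91%, 3.52% and 0.586% to 15.4%, 26.7% and 21.4% (diffSplice adjusted p = 8.2e-05). It took 7.60% to 23.6% in the chronic controls. For these 3 transcripts every GFP library lay below all 4 chronic controls. The iCre libraries lay within the range of those controls for Atp5b-206, below it for Cyc1-203, and within it for Ndufa10-207 apart from the highest. The labels show a single index for the chronic libraries and a dual index for the acute ones, and model, age and library construction cannot be told apart here. Only 4.7% of the 31-base words of Atp5b-206, 4.9% of those of Cyc1-203 and 1.8% of those of Ndufa10-207 are absent from the leading transcript, so these shares rest on few bases.

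Ndufa3-204 took 17.0%, 16.1% and 13.7% of its gene with GFP and 24.2%, 27.9% and 35.7% with iCre, while the coding Ndufa3-201 went from 79.6%, 78.9% and 76.9% to 64.3%, 65.6% and 56.1% (diffSplice adjusted p = 0.026). These iCre shares of Ndufa3-201 lay below all 7 control libraries, whose lowest was 70.7%. Ndufs1 encodes the largest iron-sulfur subunit of complex I. Its other coding transcript, Ndufs1-203, fell from 24.9%, 25.9% and 25.2% to 12.1%, 12.7% and 11.6% (diffSplice adjusted p = 4.5e-05). Ndufb4-202, an intron-retaining transcript, went from 8.74%, 8.45% and 7.87% to 13.2%, 20.8% and 24.3% (diffSplice adjusted p = 0.0069). Ndufs4-204, annotated for nonsense-mediated decay, went from 25.0%, 24.5% and 26.7% to 37.2%, 38.4% and 32.6% (diffSplice adjusted p = 0.025). Ndufb5-202, which is annotated as coding, fell from 33.0%, 39.6% and 34.9% to 24.8%, 24.9% and 24.2% (diffSplice adjusted p = 0.036). In the chronic controls Ndufs1-203 took 13.8% to 20.96% and Ndufb5-202 24.4% to 32.4%, below every GFP library. Ndufb4-202 took 11.4% to 31.3% there and Ndufs4-204 32.9% to 36.5%, above every GFP library. The iCre libraries lay within these ranges for Ndufb4-202, below for Ndufs1-203, and within for Ndufb5-202 apart from the lowest. For Ndufs4-204 they lay on both sides of the range. Model, age and library construction again cannot be told apart. The Ndufa3 call was lost without GFP replicate 1 or 2, without iCre replicate 3, on deposited TPM, and with the replicate number as a block. The Ndufs4 call was lost without GFP replicate 1 or 2 and without iCre replicate 1 or 2. Of the fits with 1 library left out, only that without iCre replicate 2 kept the Ndufb5 call. The Ndufb4 call was lost without iCre replicate 3, where the share differed by 8.63 points. The sequence GGAGA, known as an SRSF1-binding motif, was searched on the transcript strand. It occurs once in the dropped part of Ndufa10 and not in the Ndufs3 exon. Of internal coding exons in the leading transcripts of expressed genes, 25.9% hold it in their first 120 bases and 28.2% in their first 134. These matches are descriptions of sequence only.

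**Figure D5:**
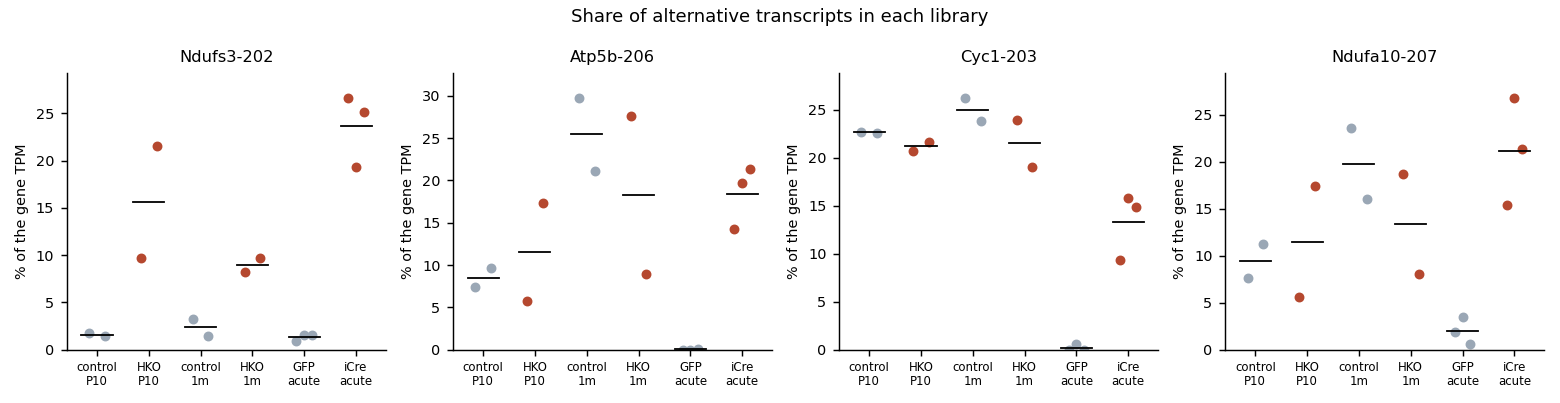
Each point is the share of a gene's TPM (y axis, percent, from 0) given to an alternative transcript in 1 library, and each bar is the group mean, for the 6 groups on the x axis. Ndufs3-202 was at most 3.23% in all controls and at least 8.23% in all knockouts, whereas Atp5b-206, Cyc1-203 and Ndufa10-207 were at most 3.52% in the GFP libraries and at least 5.62% in all others.

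Promoter windows of 250 bases before and 50 after the start site (RefSeq, GRCm38.p6) were available for 56 members within 500 bases of the leading transcript's 5′ end. Motifs of factors known to act on respiratory genes were searched on both strands, and none of them contains another. The NRF1 motif GCGCATGCG was in 14.3% of the members' windows (8 of 56) and in 4.38% of those of 7376 expressed coding genes. The YY1 motif AAGATGGCG was in 8.93% and 3.89%, the ETS motif CCGGAAGT in 7.14% and 9.94%, the cyclic AMP response element TGACGTCA in 7.14% and 3.46%, and the estrogen-related receptor motif TCAAGGTCA in 3.57% and 0.258%. Of the 7 members called lower at both ages 6 had a window, and Ndufb2 alone held any of these motifs. The 150 bases before its start site, at chr6:39592415-39592564 on the plus strand, are shown with the TGACGTCA match in capitals.
Ndufb2: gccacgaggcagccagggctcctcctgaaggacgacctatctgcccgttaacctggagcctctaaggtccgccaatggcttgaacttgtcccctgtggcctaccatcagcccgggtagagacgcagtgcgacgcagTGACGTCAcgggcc

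Some members share sequence with near-identical copies, which the estimated levels can split unevenly. Of 75 members checked, 45 shared at least 1 word of 31 bases with another gene and 7 shared over 50% of them. Among members that shared over 20% of their words, the copy averaged under 1 TPM except for 3 pairs. Ndufb4 shares 38.3% of its words with Ndufb4c, which the annotation does not list as coding. Ndufb4 stood at 11.6 to 18.7 rescaled TPM and Ndufb4c at 103.5 to 149.5, and their sum gave 139, 125 and 118 with GFP against 167, 163 and 146 with iCre. Atp5g2, a c-ring gene, shares 87.7% with Gm10175, and stood at 6.44 to 13.4 against 66.2 to 108.5 for the copy. Atp5l shares 54.3% with Gm10221, which was listed at 0 to 29.3 rescaled TPM against 206 to 342 for Atp5l. Levels and transcript shares of Ndufb4, Atp5g2 and Atp5l are therefore uncertain. The Atp5g1 and Atp5g3 genes encode the same mature c-ring protein, and limma called neither in a knockout comparison. In the authors' deposited table Atp5g1 was lower at P10 (-0.42, adjusted p = 0.018) and in the acute model (-0.55, adjusted p = 0.010).

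Other genes of the pathway gave mixed counts. Of 48 assembly factors tested, 1 rose and 4 fell at P10, 2 rose and 3 fell at 1 month, and 10 rose and 9 fell in the acute model. As shares these were 2.08% and 8.33%, 4.17% and 6.25%, and 20.8% and 18.8%, where all genes gave 8.88% and 8.12%, 8.71% and 7.6%, and 19.8% and 18.6%, so the acute shares lay near the background. Cox16 (-0.63 and -0.68) and Dmac2 (-0.47 and -0.93) fell at both chronic ages. Cox16 helps to assemble complex IV and Dmac2 the membrane arm of complex I. Cox19, a copper-pathway factor for complex IV, rose by 0.61 at 1 month and by 1.86 in the acute model. Of the regulators of respiratory genes, 1 of 13 rose and none fell at P10 (Pprc1, 0.74) and at 1 month (Nrip1, 0.76). With iCre 1 of 14 rose (Ppargc1b, 0.68) and 4 fell, among them Nrf1 (-0.48) and Tfb2m (-0.68), a mitochondrial transcription factor. These acute shares were 7.14% and 28.6%, on few genes, and the chronic one was 7.69% at each age, against the same backgrounds. Of the 17 genes of the tricarboxylic acid cycle and pyruvate dehydrogenase, 1 rose at P10, none was called at 1 month, and 2 rose and 1 fell in the acute model (11.8% and 5.88%, under the background in both directions). The subunit genes outside the symbol pattern included Atpif1, the inhibitor of the ATP synthase, which rose by 0.88 at 1 month, and Ndufab1, the acyl carrier protein of complex I, which rose by 0.55 in the acute model.

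In the authors' deposited table, made from counts, 26 of 80 members were lower and none higher at P10 (background 11.8% lower and 13.4% higher). At 1 month the authors' deposited table has 1 member higher and 2 lower (background 8.97% and 4.53%). In the acute model the authors' deposited table has 4 members higher and 9 lower (background 16.4% and 16.1%). These backgrounds cover all genes listed there with an adjusted p, including many under 1 TPM. Among the genes tested here, 1857 of 10962 were lower there at P10, 712 of 11006 at 1 month and 2779 of 10255 in the acute model. Higher there were 1679, 957 and 1508 of them. The direction was the same there for all 12 members called here at P10, all 16 at 1 month and all 9 in the acute model, and 11, 3 and 4 of them passed in the authors' deposited table. Of the 26 at P10, 10 were membrane-arm genes of complex I, in the authors' deposited table, where Ndufb11 was at -0.55 (adjusted p = 6.3e-05). Ndufb5 passed at both chronic ages in the authors' deposited table, at -0.50 (adjusted p = 0.00099) and -0.81 (adjusted p = 0.0027). The rest of the genes called lower here at both ages passed there at P10 but not at 1 month. Their 1-month values in the authors' deposited table ran from -0.57 (Ndufb2) to -0.44 (Ndufb10), with adjusted p from 0.091 (Ndufb7) to 0.24 (Ndufb10).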

How the data were processed

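RNA of purified hepatocytes was measured in 14 libraries of stranded, polyA-selected RNA, per the labels. The authors deposited TPM per transcript from kallisto 0.46.0 on GRCm38 and tables from DESeq2 with log2 fold changes, their SE and p-values, per the submitters' processing notes and the file headers. Those deposited tables also give a signal, the mean normalized count per gene, and a test score, the fold change over its SE, which was not used. The depth of the TPM is unknown, so no counting interval is given. Of 373 member transcripts, 364 match GENCODE M21 by identifier, version and length.

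TPM were summed per gene and divided by median-ratio factors over the 14 libraries, because TPM are shares of a total that moved with group. This scale was chosen with the shift of the median gene in deposited TPM known from earlier results. Changes were tested with limma 3.58.1 (R 4.3.3, trend) on log2(rescaled TPM + 1), keeping genes whose mean in the fit reached 1 TPM, two-sided, with Benjamini-Hochberg adjustment at 0.05 over all genes. The 8 chronic libraries shared a fit, the 6 acute libraries had their own, and differences between models used all 14. The differences of sums were set beside exact permutation limits. Usage was tested with diffSplice. Both steps were tested on simulated data.

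The members and gene lists were chosen with earlier results of these data known. Named genes were those with the smallest p per complex and comparison, those moving against their complex, the extremes, the tissue isoforms with their counterparts, and the usage calls. Replicate numbers were not used to pair the libraries in the main fits. Tables and figures used Python 3.11.15, pandas 2.3.3 and matplotlib 3.10.9. Alternatives were other scalings, another pseudocount, no filter, coding transcripts alone, a fit over all libraries, the replicate block and leaving out each library.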

Additional observations from a re-analysis of the deposited data

Results flagged for a closer look

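For these members the knockout effects differed between comparisons by a limma test of the difference itself, at a Benjamini-Hochberg adjusted p under 0.05 over all genes. Between 1 month and P10 the effect on Cox6b2 differed by 1.35 on the log2 scale (limma adjusted p = 0.049), and no other member passed. Between the acute model and 1 month the effect was higher in the acute model for Uqcrq (0.88), Ndufs7 (0.84), Ndufa13 (0.83), Cox6a1 (0.75), Ndufb9 (0.72), Ndufa12 (0.66), Uqcrb (0.66), Cox8a (0.65), Ndufa3 (0.65), Cox7c (0.65), Ndufs4 (0.57) and Cox5b (0.56). Ndufa4l2 (1.31) also passed, but it met the minimum of 1 TPM only through its iCre libraries. Its call is therefore a consequence of the choice of members and not a result. The effect was lower in the acute model for Cox6b2 (-1.20) and Cox7a1 (-0.64), and neither passed with a pseudocount of 0.1 TPM. These differences carry a change of model, age, virus and control genotype together, which cannot be told apart.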

How the results depend on the processing

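The counts of called members depended on the scale, because they are read against the median gene, and the causes of the other shifts were not tested. On deposited TPM the numbers called higher and lower were 1 and 0 at P10, 1 and 0 at 1 month, 1 and 27 in the acute model, 1 and 8 with age, 0 and 0 for 1 month minus P10, and 0 and 1 for acute minus 1 month. With mitochondrially encoded genes removed from the TPM total they were 4 and 0, 2 and 1, 4 and 1, 1 and 42, 0 and 0, and 1 and 2. Summed member levels then changed sign at P10 (log2 0.085 deposited, 0.10 without those genes), at 1 month (0.12 without them) and in the acute model (-0.36 deposited). Coding transcripts alone gave 13 members higher in the acute model and 1 lower for 1 month minus P10. A fit over all 14 libraries gave 18 higher and 7 lower in the acute model and 1 lower for 1 month minus P10. Without a filter on low values 0 were higher for 1 month minus P10 and 1 lower for acute minus 1 month, and with a pseudocount of 0.1 TPM 0 were lower there.

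Whether same-numbered libraries pair was not settled. Their deviations from the group means correlated at 0.0035 to 0.284, and differently numbered libraries were not set beside them. With the replicate number as a block the acute counts were 13 higher and 3 lower, and 1 month minus P10 gave 0 higher.

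Leaving out each library gave 0 to 1 higher and 0 to 12 lower at P10, 1 to 1 higher and 1 to 12 lower at 1 month, 2 to 7 higher and 1 to 5 lower in the acute model (5 lower without iCre replicate 2), and 9 to 22 higher and 0 to 2 lower with age. It gave 0 to 1 higher and 0 to 0 lower for 1 month minus P10, and 5 to 18 higher and 1 to 2 lower for acute minus 1 month. Usage calls ran from 0 to 2 at P10, 0 to 1 at 1 month and 6 to 8 in the acute model, and summed levels from -0.21 to -0.17, from -0.23 to -0.18 and from 0.0095 to 0.15. A chronic group left with 1 library is assumed to vary like the others. Usage on deposited TPM, an alternative chosen after seeing the data, called 9 members in the acute model. Ndufa3 was not among these 9 (diffSplice adjusted p = 0.055).

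Single values changed sign on deposited TPM for Ndufs7 (-0.025), Atp5mpl (-0.023) and Cox5b (-0.048) in the acute model. With age they did so on deposited TPM and without mitochondrially encoded genes for Ndufb2 (-0.22, -0.25), Sdhb (-0.055, -0.082), Ndufa12 (-0.034, -0.061), Uqcr11 (-0.045, -0.072), Cyc1 (-0.21, -0.23), Ndufa5 (-0.16, -0.19), Ndufb3 (-0.12, -0.14), Ndufa4 (-0.12, -0.15), Atp5h (-0.21, -0.24), Ndufa13 (-0.070, -0.097), Ndufv1 (-0.035, -0.062), Uqcrfs1 (-0.082, -0.11), Cox6a1 (-0.020, -0.047), Cox5b (-0.23, -0.26) and Ndufb6 (-0.10, -0.13). Without those genes Cox6c (-0.017), Cox4i1 (-0.0014) and Cox8a (-0.024) also did. Depth is unknown for TPM, which limits what can be said of members near 1 TPM.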
